A study of Mus musculus with 5 samples.

Results

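The lysosome genes of B16F10 cells, a pigmented mouse melanoma line, were followed through 3 changes of cell state. The group held 47 genes of the 54699 in the table, chosen by symbol: 20 hydrolases, 3 soluble cofactors, 9 membrane proteins, 14 genes of the proton pump and the transcription factor Tfeb. RNA was sequenced from 5 cultures, 1 library per group, and every culture had been infected with lentivirus and grown in DMEM with fetal bovine serum. One culture was made to express Myod1, which drives muscle differentiation, and another Pparg, which drives fat cell differentiation; both were taken on day 8. They share a control of otherwise wild-type cells given the empty expression vector, taken on day 8 as well. In the fourth, a short hairpin RNA lowered Setdb1, an enzyme that methylates histone H3 at lysine 9. It was taken on day 7, as was its own control, otherwise wild-type cells given the empty knockdown vector. Whether infected cells were selected, cloned or pooled is not given in the sources used here. With 1 library per group there is no replicate check and no test between conditions, so all values below describe these libraries.

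The lysosome is the acidic compartment in which cells break down proteins, glycans and lipids. Its V-ATPase pumps protons inward through a membrane sector (V0) driven by ATP hydrolysis in a cytosolic sector (V1), and the acid activates the hydrolases. Factors of the MiT/TFE family (Mitf, Tfeb, Tfe3 and Tfec) bind sites with the core CACGTG in promoters of lysosome genes. In pigment cells the melanosome is a relative of the lysosome, and Gpnmb and Cd63 are found in both.

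The libraries held between 16214802 and 18300670 reads assigned to genes, recovered from the deposited FPKM (fragments scaled for gene length and library size). Myod1 had an FPKM of 260.1 and Pparg one of 44.4 in the libraries named for them, with 0 reads in the other 4. Setdb1 had an FPKM of 0.867 in the knockdown library against 9.82 in its control, so 8.83% remained. All 8 melanocyte markers examined had an FPKM of at least 1 in every library, and their summed FPKM ran from 2308 with Pparg expression to 9098 with Setdb1 knockdown. Gpnmb, Cd68 and Atp6v0d2 are also known from macrophages and osteoclasts. None of 8 macrophage markers (Ptprc, Csf1r, Adgre1, Cd14, Itgam, Aif1, Tyrobp and C1qa) reached an FPKM of 1 in any library, and their summed FPKM was at most 0.739. Of 5 osteoclast markers, Mmp9 reached an FPKM of 3.04 with Myod1 expression, and none of the others reached 1.

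Of the 47 genes, 46 reached an FPKM of 1 in all 5 libraries, and 44 of these rested on at least 100 reads in each. The exceptions in depth were Ctsf and Cd68. The gene left out of the comparisons was Atp6v0d2, an isoform of the V0 subunit d known from osteoclasts and macrophages. It had 1 read with Pparg expression and 0 in the other libraries, where 3 reads, taken as the limit for a count of 0, would be an FPKM of 0.0597 to 0.0702.

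Together the 47 genes took 1.35% of all reads with Myod1 expression, 2.23% with Pparg expression and 3.04% in the control of both. The share was 2.83% with Setdb1 knockdown and 2.25% in the empty knockdown vector control. A single gene, Gpnmb, carried much of this. Gpnmb (ENSMUSG00000029816, GRCm38 chr6:49036546-49070929), a transmembrane glycoprotein of melanosomes and lysosomes, had an FPKM of 724 with Myod1 expression, 1067 with Pparg expression and 2711 in their control, and of 980.2 with Setdb1 knockdown and 1573 in that control. The control libraries were the highest, and they differed from each other. Without Gpnmb the summed FPKM of the other 46 genes was 3451, 4058 and 4033 in the first 3 libraries. It was 6112 with Setdb1 knockdown and 3490.2 in the knockdown vector control, a ratio of 1.75, or 1.52 against the other control. The Setdb1 knockdown library had the highest level of the 5 for 30 of the 46 genes compared (65.2%, against 25.9% of all genes), and the Myod1 expression library had the lowest for 27 (58.7%, against 23.1%).

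**Figure D1:**
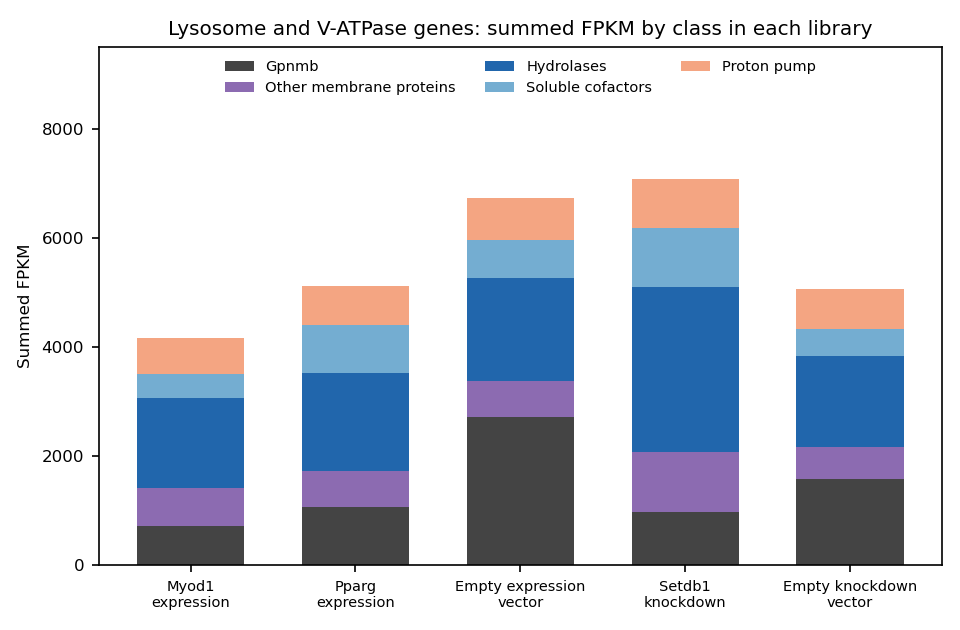
Summed FPKM of the 47 lysosome and V-ATPase genes in each of the 5 libraries, stacked by class with Gpnmb drawn apart (Tfeb, 5.60 to 11.4, is not drawn). Gpnmb, at 2711, makes up a large part of the bar of the empty expression vector control, and the hydrolases are highest, at 3019, in the Setdb1 knockdown library.

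Promoters are shown because the core site of MiT/TFE factors, which played no part in choosing the genes, was found in many of them. RefSeq promoter windows (GRCm38.p6, 250 bases before to 50 after each start, written 5′ to 3′ on the strand of the gene) were at hand for 38 of the 47 genes. The core CACGTG, which reads the same on both strands, was found in 15 of the 38, or 39.5%. It was found in 8.09% of all 27025 genes with a window and in 12.2% of the 8980 that were also compared for expression. The longer TCACGTGA, which contains the core, was found in 8 of 38 (21.1%, against 1.12% of all genes and 2.28% of those compared), and the full palindrome known as the CLEAR element, which contains both, in 1, Cln3 (2.63%, against 0.370% and 0.824%). The E box CAGCTG, of the kind Myod1 binds, was in 8 of 38 (21.1%, against 18.3%), and the direct repeat bound by PPAR with RXR (DR1, in its exact consensus on either strand) was in 0 of 38 (0.0481% of all genes). Capitals mark the core CACGTG in sites of 9 of the 15 genes, picked after their values were seen: 7 of the 9 that were at least 2-fold higher with Setdb1 knockdown, 1 that was lower there (Atp6v0d1) and 1 that was lower with Myod1 expression (Atp6v1a). For Ctsa, Cln3 and Mcoln1, 1 of 2 cores is shown, and the stretch lies in an annotated exon of the gene itself. Ctsd, Ctsl, Gla, Glb1, Naglu and Atp6v0e also have a core and are not printed.
Lamp1 (chr8:13159085-13159160, plus strand): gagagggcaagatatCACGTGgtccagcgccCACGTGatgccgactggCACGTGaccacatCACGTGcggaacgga
Mcoln1 (chr8:3500462-3500491, plus strand): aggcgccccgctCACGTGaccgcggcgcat
Cln3 (chr7:126583340-126583369, minus strand): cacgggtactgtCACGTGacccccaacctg
Ctsa (chr2:164833746-164833772, plus strand): caatgagcaaactgtCACGTGatgcag
Ctsf (chr19:4855071-4855106, plus strand): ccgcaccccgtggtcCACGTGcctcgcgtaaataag
Gaa (chr11:119267808-119267843, plus strand): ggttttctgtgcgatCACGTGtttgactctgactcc
Atp6v0b (chr4:117887330-117887380, minus strand): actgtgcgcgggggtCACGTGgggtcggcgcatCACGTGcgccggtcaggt
Atp6v0d1 (chr8:105566050-105566079, minus strand): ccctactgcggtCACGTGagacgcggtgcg
Atp6v1a (chr16:44139370-44139405, minus strand): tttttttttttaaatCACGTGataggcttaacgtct

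Lamp1, the main glycoprotein of the lysosomal membrane, had 4 cores, at positions -61, -45, -28 and -15 from the start. Of 24 cores in the windows of the 15 genes, 14 lay within 100 bases before a start, 4 of them in Lamp1. Positions of cores in the windows of other genes are not given, so this count has no share to be read against. A match describes the letters and not binding. With Setdb1 knockdown the 15 genes with a core had a median log2 ratio (log2 of FPKM + 1, treated minus control) of 1.07, and the 23 without one had 0.55. For Myod1 the medians were -0.32 and -0.27, and for Pparg 0.01 and -0.06. The 15 did not move as one, since with Setdb1 knockdown they ran from -1.39 for Atp6v0d1 to 2.75 for Ctsf. Ctsh, which had no window, is in neither group. The same split is not given for all genes, against the other control or with trends with GC content removed. Whether the core had a part in the difference was not tested.

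**Figure D2:**
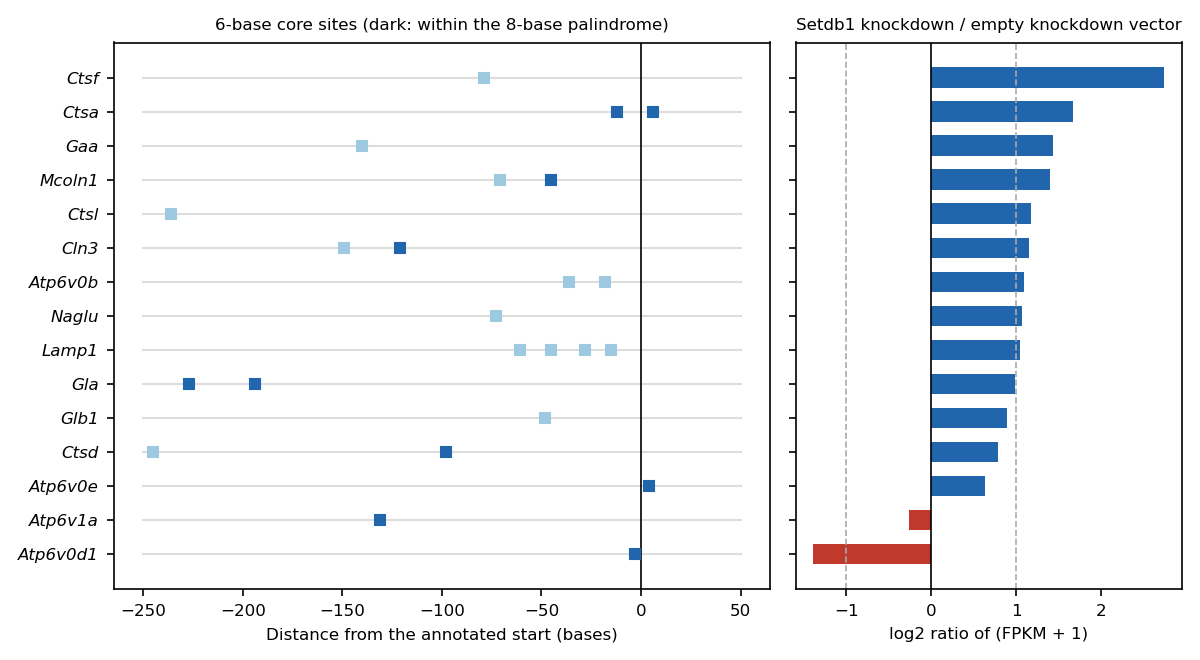
Left, distance in bases from the annotated start to each core site in the promoter windows of the 15 genes that have one, with sites inside the longer palindrome in dark blue. Right, the log2 ratio of FPKM + 1 of the same genes, Setdb1 knockdown over the empty knockdown vector, which was above 0 for all but Atp6v1a and Atp6v0d1.

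With Setdb1 knockdown most lysosome genes were higher than with the empty knockdown vector. Of the 46 genes, 13 (28.3%) were at least 2-fold higher, where 9.34% of all 12842 genes compared were. Atp6v0d1, 1 of 46 (2.17%), was at least 2-fold lower, where 10.3% of all genes were. The median log2 ratio was 0.77, against 0.00 over all genes, and 37 of 46 genes were above 0, where 50.3% of all genes were. Between the 2 controls (empty knockdown vector minus empty expression vector) the median of the 46 was -0.16, with 0 of 46 at least 2-fold higher (1.23% of all genes) and 1 lower (1.44%). A higher value in bulk RNA cannot be told apart from a change in which cells made up the culture. Ratios of all genes moved with GC content here (Spearman rho 0.39 across genes, which are not replicates), while the GC content of the 46 genes had a median of 51.0%, near the 50.1% of all. With the trends with GC content and length removed, the median was 0.69 and 13 genes were at least 2-fold higher, 10 of them the same. Naglu (0.55), Lamp1 (0.85) and Atp6v0b (0.67) dropped under the limit, and Ctsb (1.08), Gla (1.12) and Atp6v1h (1.18) passed it. The choice of control moved these values further. The knockdown vector control was the lower of the controls for 32 of the 46 genes, while it was the higher for 46.7% of all genes. Against the expression vector control the median was 0.55. Past 2-fold against both controls were 8 higher genes (Ctsa, Ctsf, Ctsh, Gaa, Neu1, Grn, Cln3 and Atp6v0b), where 5.80% of all genes were, and 1 lower (Atp6v0d1), where 7.56% were.

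Cathepsins and other proteases, which digest proteins in the lysosome, were higher as a class with Setdb1 knockdown. All 8 were above their control (50.3% of all genes were), 4 of them at least 2-fold (9.34% of all genes), with a median of 1.08, and 3 passed 2-fold against both controls (5.80% of all genes). Ctsh (ENSMUSG00000032359, chr9:90054152-90076089), a cathepsin that trims peptides from their amino end, had an FPKM of 24.8 (95% counting interval 23.8 to 25.9) with knockdown and 1.46 (1.21 to 1.76) in its control. In the other libraries it had 9.91 with Myod1 expression, 5.93 with Pparg expression and 2.48 in their control. Ctsh was thus lowest in both controls, and its log2 ratio of 3.39 with Setdb1 knockdown was the highest of the 46 genes. Ctsf (ENSMUSG00000083282, chr19:4855129-4860912), a cysteine cathepsin, had 17.3 with knockdown, on 633 reads, and 1.73 (1.33 to 2.24) in its control, a log2 ratio of 2.75. The Myod1 library had 14.7, the Pparg library 6.66 and their control 2.17. The 3 treated libraries lay above both controls, although the control values rest on 70 and 57 reads.

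The other proteases were abundant in every library. Ctsa, protective protein of Neu1 and Glb1, had an FPKM of 183 with knockdown against 56.6, and of 53.7, 85.1 and 88.6 in the Myod1 library, the Pparg library and their control. Ctsl, a cysteine cathepsin, had 35.3 with knockdown, 2.35 times its control, and its log2 ratio of 1.18 was 0.87 against the other control. Ctsd, the aspartic protease of the lysosome, had the highest level of the class in all 5 libraries: 424, 579.7 and 469.6, then 890.1 with knockdown and 516 in its control. Ctsb (0.99), Tpp1 (0.86), Ctsd (0.79) and Ctsz (0.70) were higher by less than 2-fold.

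Among the glycosidases and the sulfatase Galns, which take sugar chains apart, 7 of 8 were higher with Setdb1 knockdown (50.3% of all genes), 3 of them at least 2-fold (9.34%), with a median of 0.95, and 2 passed 2-fold against both controls (5.80% of all genes). Neu1, the sialidase, had an FPKM of 76.7 with knockdown against 20.5, while the other 3 libraries had 20.5 to 29.3. Gaa, acid alpha-glucosidase that degrades glycogen, had 195 against 71.1, and 69.9 to 90.9 elsewhere. Both stood alone in the knockdown library, with log2 ratios of 1.36 and 1.09 against the other control too. Naglu, a heparan sulfate enzyme, had 139.7 against 66.2, but 123 in the other control, so that its log2 ratio of 1.07 became 0.18 against that one. Gla (0.99), Glb1 (0.90), Galns (0.85) and Hexa (0.76) lay under the limit, and Gusb, beta-glucuronidase, stood at -0.19.

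The enzymes of lipid breakdown did not share this shift. Asah1 (acid ceramidase), Smpd1 (acid sphingomyelinase), Lipa (acid lipase) and Ppt1 (palmitoyl-protein thioesterase) had log2 ratios of -0.27, -0.25, -0.07 and 0.12 with Setdb1 knockdown. In the same order they stood at -0.05, -0.57, 0.20 and 0.29 with the GC and length trends removed. Against the other control they stood at -0.17, -0.10, 0.30 and 0.15. The soluble cofactors were higher. Grn, progranulin, had an FPKM of 353 with knockdown and 97.2 in its control, against 68.2 with Myod1 expression, 160.2 with Pparg expression and 149 in their control. The knockdown library was the highest for Grn and the Myod1 library the lowest. Npc2, the soluble carrier of cholesterol, had a log2 ratio of 0.95 and Psap, precursor of the saposins that present sphingolipids to hydrolases, 0.87, or 0.31 against the other control.

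**Figure D3:**
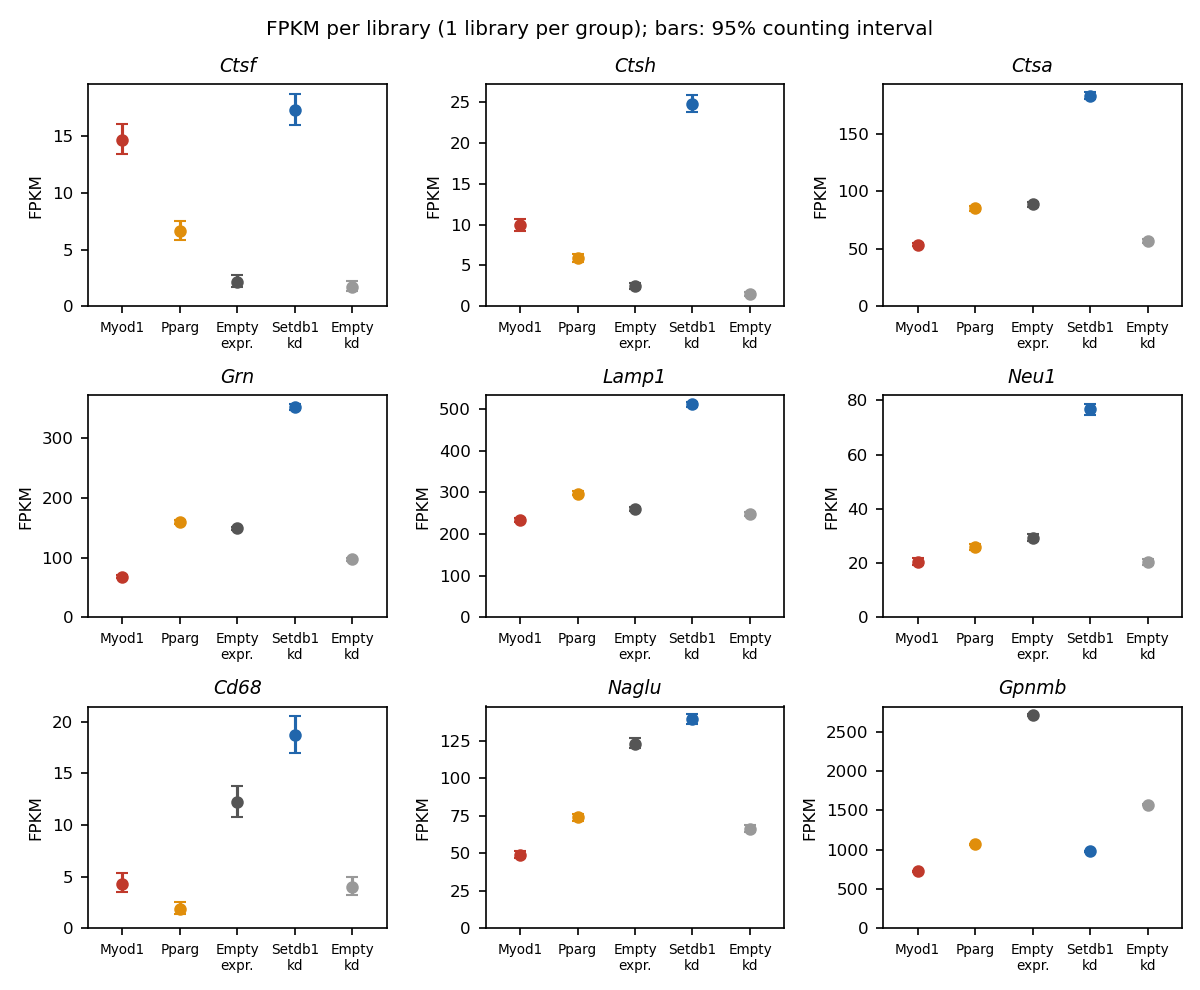
FPKM of 9 members in each library, 1 library per group, with 95% counting intervals (Wilson, on the share of library reads; many are smaller than the point). Ctsf and Ctsh are low in both controls and high in the 3 treated libraries, Ctsa, Grn, Lamp1 and Neu1 stand out in the Setdb1 knockdown library, and Cd68, Naglu and Gpnmb differ between the 2 controls.

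Of the 9 membrane proteins, 7 were higher with Setdb1 knockdown (50.3% of all genes), 4 of them at least 2-fold (9.34%), with a median of 0.87. Against the other control the median was 0.58, and 1 of the 4, Cln3, passed 2-fold against both (5.80% of all genes). Lamp1 had an FPKM of 512 with knockdown against 247, and 234, 297 and 259 in the Myod1 library, the Pparg library and their control. Its log2 ratio was 1.05, and 0.98 against the other control. Lamp2, which lines the same membrane and serves chaperone-mediated autophagy, went the other way, with 14.0 against 24.7 (-0.78) and 24.2 in the other control. Removing the GC and length trends brought Lamp2, whose longest transcript has a GC content of 38.7%, to -0.13. Gpnmb, the most abundant of the class, was also below 0, at -0.68, and at -1.47 against the other control. Mcoln1, the calcium channel of the lysosome, had 13.1 against 4.32, and 4.23 to 6.16 in the other libraries. Cln3, a membrane protein mutated in a juvenile neuronal storage disease, had 4.96 against 1.69, and 1.25 to 1.94 elsewhere. Both were highest in the knockdown library. Cd63, a tetraspanin (0.87), Scarb2, the receptor that carries beta-glucocerebrosidase (0.55), and Npc1, the cholesterol exporter (0.47), were higher by less than 2-fold. Cd68, a heavily glycosylated lamp-family protein, had 18.7 (17.0 to 20.5) with knockdown, 4.68 times its control, whose own FPKM had an interval of 3.23 to 4.95, and a log2 ratio of 1.98. The expression vector control had 12.2 (10.8 to 13.8), so the 2 controls differed by -1.40, the only one of the 46 genes to differ by 2-fold between them, and against that control the ratio was 0.58.

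The subunits of the proton pump differed among themselves. Of 13 subunits, 10 were higher with Setdb1 knockdown (50.3% of all genes), with a median of 0.31, or 0.48 with the GC and length trends removed and 0.16 against the other control. Atp6v0b, a proteolipid of the membrane ring, had an FPKM of 203 with knockdown against 94.2, and 141, 99.0 and 97.4 in the Myod1 library, the Pparg library and their control. Its log2 ratio of 1.10, the one past 2-fold among the higher subunits (7.69% of 13, against 9.34% of all genes), was 0.67 with the trends removed. Atp6v0d1 (ENSMUSG00000013160, chr8:105524465-105566047), the subunit that joins the stalk to the ring, had 42.9 (40.7 to 45.2) against 114 (110.0 to 118). The other 3 libraries had 79.1, 114 and 113. It was the most abundant V0 gene in both controls and the third of 5 in the knockdown library, with log2 ratios of -1.39 and, against the other control, -1.38, the one subunit at least 2-fold lower (7.69%, against 10.3%). Its isoform gene Atp6v0d2 had 0 reads in both. Atp6v0e stood at 0.64, Atp6v0c, the main proteolipid of the ring, at 0.09, and Atp6v0a1, the large membrane subunit, at -0.22. Of the V1 sector, Atp6v1e1 (0.84), Atp6v1d (0.64), Atp6v1h (0.54), Atp6v1c1 (0.43) and Atp6v1b2 (0.23) were above 0. The catalytic subunit Atp6v1a stood at -0.26. The accessory subunits Atp6ap1 and Atp6ap2 stood at 0.31 and 0.16.

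**Figure D4:**
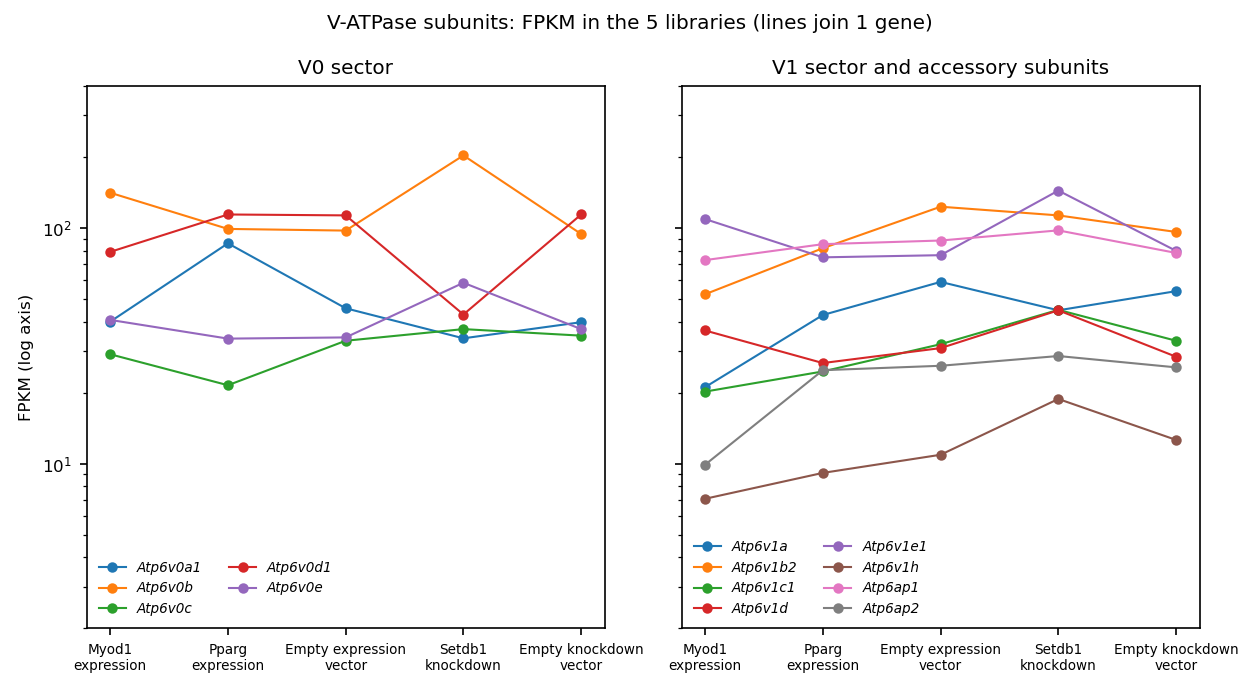
FPKM, on a log axis, of the 13 V-ATPase genes compared in the 5 libraries, with V0 genes on the left and V1 and accessory genes on the right (lines join the values of 1 gene and imply no order of libraries). Atp6v0d1 is at 42.9 in the Setdb1 knockdown library where Atp6v0b is at 203, and Atp6v1a and Atp6ap2 are lowest with Myod1 expression, at 21.1 and 9.89.

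In the Myod1 library most lysosome genes were lower than in its control. Of the 46, 9 (19.6%) were at least 2-fold lower, where 7.55% of all genes were, and 4 (8.70%) were at least 2-fold higher, where 14.0% of all genes were. The median log2 ratio was -0.35, against 0.02 over all genes, and 34 of 46 genes were below 0, while 51.0% of all genes were above it. Against the other control the median was -0.14, and past 2-fold against both controls were 4 higher genes (11.9% of all genes) and 4 lower (4.42%). The melanocyte markers had a summed FPKM of 3306 here against 7816 in the control and 4 skeletal muscle markers one of 18879 against 0.241, and their part in the result was not tested. The deposited scaling bears on this comparison: dividing by column sums moved the median of all genes to -0.26 and that of the 46 to -0.73, with 16 genes lower (34.8%, against 14.8% of all genes) and 2 higher (4.35%, against 9.64%).

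The 4 higher genes were hydrolases. Ctsf (log2 ratio 2.30) and Ctsh (1.65), with the values given above, were joined by Galns, the sulfatase of keratan and chondroitin sulfate, and Ctsl. Galns had an FPKM of 34.8 with Myod1 expression, and 12.3, 13.2, 18.4 and 9.77 in the Pparg library, its control, the Setdb1 knockdown library and that control. Ctsl had 40.4 against 18.9, and 20.9 and 35.3 in the Pparg and Setdb1 knockdown libraries. The Myod1 library was the highest of the 5 for both. All 4 were also at least 2-fold higher against the other control. Under division by column sums, 2 of them, Ctsf and Ctsh, remained past 2-fold.

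The 9 lower genes were 2 glycosidases, 1 cofactor, 3 membrane proteins and 3 pump genes. Gla, alpha-galactosidase A, had an FPKM of 3.76 (3.27 to 4.33) with Myod1 expression against 13.1 (12.1 to 14.1), and 10.1, 22.4 and 10.7 in the Pparg library, the Setdb1 knockdown library and its control, so that the Myod1 library lay below all others. In the pump, the catalytic Atp6v1a had 21.1 against 59.0, and 42.7 to 53.9 elsewhere. Atp6ap2, also known as the prorenin receptor, had 9.89 against 26.0, and 24.9 to 28.6 elsewhere. For both, the Myod1 library alone stood low. Gpnmb had a log2 ratio of -1.90. These 4 (Gla, Gpnmb, Atp6v1a and Atp6ap2) were at least 2-fold lower against the other control as well. The other 5 were not: Naglu went from -1.31 to -0.43, Grn from -1.11 to -0.50, Npc1 from -1.30 to -0.77, Atp6v1b2 from -1.22 to -0.86 and Cd68 from -1.31 to 0.09. Pump subunits again differed among themselves, since Atp6v0b (0.53) and Atp6v1e1 (0.50) were above their control.

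Pparg expression against the same control left most lysosome genes near their control. Of the 46, 1 was at least 2-fold higher (2.17%, against 4.22% of all genes) and 2 were at least 2-fold lower (4.35%, against 2.30%). The median was -0.07, against -0.02 over all genes. Summed melanocyte markers were at 2308 against 7816 and adipocyte markers at 301 against 0.0697, and their part was not tested. Ctsf was the higher one (1.27), also past 2-fold against both controls (3.34% of all genes), and Ctsh lay just under the limit (0.99, and 1.49 against the other control). Gpnmb (-1.34) and Cd68 (-2.20) were the lower ones, and both differed between the controls: against the knockdown vector control they stood at -0.56 and -0.80. Cd68 had its lowest FPKM here, 1.87 (1.40 to 2.50), on 45 reads. Atp6v0a1 had 86.0 with Pparg expression against 45.6, and 34.0 to 40.0 in the other libraries, the highest of the 5, with a log2 ratio of 0.90 and 1.09 against the other control. The V1 subunits ran from -0.58 for Atp6v1b2 to -0.03 for Atp6v1e1, the latter within its counting error, while 45.8% of all genes were above 0. Psap, at 639 against 509.6, was also highest in this library, close to the 631 of the Setdb1 knockdown library. The lowest log2 ratio among the hydrolases was that of Naglu (-0.73).

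Side by side, the Myod1 and Setdb1 comparisons, which share no library, had opposite signs for 27 of the 46 genes (58.7%, against 33.8% of all genes). In 26 of them the gene was above 0 with Setdb1 knockdown and below 0 with Myod1 expression (56.5%, against 17.2%). With each comparison taken against the other control this held for 21 (45.7%, against 17.1%). Taken singly, 37 of the 46 were above 0 with Setdb1 knockdown and 34 below 0 with Myod1 expression. The counts of sign pairs largely follow from these 2 shifts and do not show opposition gene by gene. Naglu, Grn and Cd68 were at least 2-fold higher with Setdb1 knockdown and lower with Myod1 expression (6.52%, against 0.366%), and Ctsf, Ctsh and Ctsl were at least 2-fold higher in both (6.52%, against 2.20%). With the other control in each comparison, 0 of the 46 were past 2-fold in these opposite directions (0.202% of all genes), and 2, Ctsf and Ctsh, were at least 2-fold higher in both (4.35%, against 2.13%). The Myod1 and Pparg comparisons share their control, which fixes part of any likeness between them. In 25 of the 46 genes (54.3%, against 61.7% of all) no comparison reached 2-fold, among them Ctsd, Hexa, Psap and Cd63, which had high levels in every library.

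**Figure D5:**
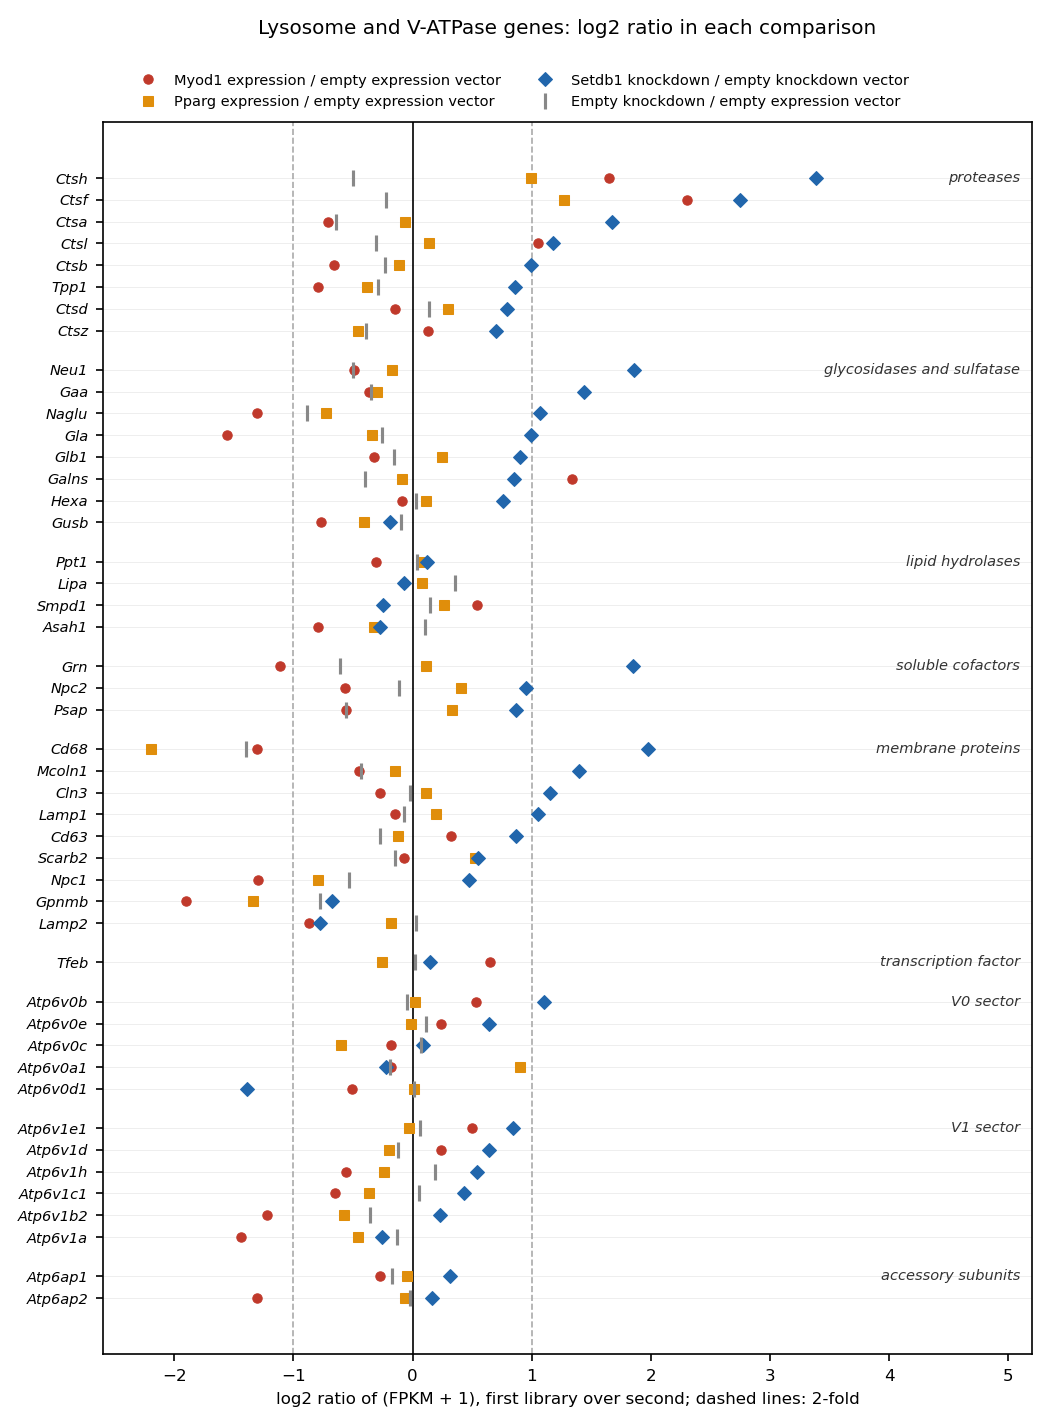
Log2 ratio of FPKM + 1 of the 46 genes compared, by class, in the 3 comparisons and between the 2 controls (grey bars); within a class, genes are sorted by the Setdb1 comparison and dashed lines mark 2-fold. Blue diamonds (Setdb1 knockdown) lie right of 0 for 37 of 46 genes and red circles (Myod1 expression) left of 0 for 34.

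The factors that bind lysosome promoters were compared as well. Tfeb had an FPKM of 11.4 with Myod1 expression, 5.60 with Pparg expression and 6.90 in their control, and of 7.84 with Setdb1 knockdown and 6.99 in that control. It was highest in the Myod1 library, with a log2 ratio of 0.65, and stood at 0.15 with Setdb1 knockdown, or -0.25 with the GC and length trends removed. Mitf, the melanocyte member of the family, had 8.03, 16.7 and 28.7 in the first 3 libraries, then 13.7 with Setdb1 knockdown and 41.6 in its control. Mitf was thus at least 2-fold lower with Myod1 expression (-1.72) and with Setdb1 knockdown (-1.54). Tfe3 had log2 ratios of -0.65, -0.06 and 0.34 with Myod1 expression, Pparg expression and Setdb1 knockdown, and Tfec had at most 4 reads in any library. Of the 18 genes compared in the list of MiT/TFE factors and their nutrient control, 2 were at least 2-fold higher (11.1%, against 14.0% of all genes) and 2 lower (11.1%, against 7.55%) with Myod1 expression, the higher ones being Rragd, a Rag GTPase, and Flcn, folliculin (both 1.38), and Mitf the lowest. With Setdb1 knockdown 0 were higher (9.34% of all genes) and 1 lower (5.56%, against 10.3%). No gene of the list passed 2-fold with Pparg expression (4.22% and 2.30% of all genes).

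Other lysosome genes, listed by function and not by their values, were compared in the same way. Of 28 other hydrolases and cofactors, 4 were at least 2-fold higher (14.3%, against 9.34% of all genes) and 2 lower (7.14%, against 10.3%) with Setdb1 knockdown, with a median of 0.65 against the 0.00 of all genes. Arsb, arylsulfatase B, was the lowest, with 1.29 against 7.66 and 4.39 to 9.39 elsewhere. The knockdown library was thus the lowest of the 5 for Arsb. With Myod1 expression the median of these 28 was -0.45, with 1 higher (Arsg, 1.45; 3.57%, against 14.0% of all genes) and 2 lower (Hgsnat, -1.69, the lowest; 7.14%, near the 7.55% of all genes). With Pparg expression it was 0.00, with 0 higher (4.22% of all genes) and 1 lower (3.57%, against 2.30%), Hyal1, at -1.15, or 0.29 against the other control.

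Of 21 other lysosomal membrane proteins and transporters, 1 was at least 2-fold higher and 1 lower with Setdb1 knockdown, each 4.76% and below the 9.34% and 10.3% of all genes, with a median of 0.03. The higher one was Ostm1, partner of the chloride transporter Clcn7, with an FPKM of 23.8 against 7.77, and the lower one Laptm4b (-1.88), with an FPKM of 36.3 against 136 and 119.9 to 149.8 elsewhere. With Myod1 expression 3 were higher, led by Abcb9 (1.61), and 3 lower, led by Mcoln2 (-1.74), each 14.3%, against 14.0% and 7.55% of all genes. With Pparg expression none passed 2-fold (4.22% and 2.30% of all genes). Of 7 other V-ATPase subunits, Atp6v1f of the V1 sector was at least 2-fold higher (1.17, but 0.84 against the other control and 0.97 with the trends removed) and Tcirg1, the a3 isoform of the large V0 subunit, lower (-1.48) with Setdb1 knockdown, where Tcirg1 had 18.7 against 54.1 and 37.6 to 65.5 elsewhere. Each is 14.3% of the 7, against 9.34% and 10.3% of all genes. None of the 7 passed 2-fold with Myod1 expression (14.0% and 7.55% of all genes) or Pparg expression (4.22% and 2.30%).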

How the data were processed

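RNA was sequenced in 5 libraries of B16F10 cells, 1 per group. The authors deposited FPKM values per gene. The submitters' processing notes name CASAVA, HISAT2, featureCounts 1.5.0-p3 and the build GRCm38. How values were scaled between libraries, strand and the handling of shared reads are not given in the sources used here. In each library 100.0% of values above 0, times gene length, were whole multiples of 1 step (within 0.01), which gave reads per gene. The deposited library sizes were 0.859 to 1.10 times these reads. Positions equalled GENCODE M21 (GRCm38) for 98.3% of shared identifiers. The comparison by log2(FPKM + 1), which understates changes of low genes, took in every gene that reached an FPKM of 1 in some library. At least 2-fold means an absolute log2 ratio of at least 1. Intervals are 95% Wilson intervals on the share of reads and cover counting error only. Python 3.11.15 (numpy 2.4.6, pandas 2.3.3, scipy 1.17.1, matplotlib 3.10.9) was used, and the steps were tested on simulated data. GC content came from the longest M21 transcript, for 98.7% of genes compared. Of the 45 promoter windows, 40 matched the beginning of a transcript.

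The members and lists were chosen with earlier results of these data known. Named by rule were members at least 2-fold different in a comparison, the most abundant member of each class, its highest and lowest ratio, Tfeb, Mitf, Tfe3 and Tfec, and the extremes of the other lists. Further names give the rest of a class. Alternatives were another pseudocount, filters, scalings, centring, the other control, removal of GC and length trends and a 4-fold limit. A difference against both controls was added after seeing the data.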

Additional observations from a re-analysis of the deposited data

How the results depend on the processing

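No paired analysis was possible because each group has 1 library, and for the same reason no library could be left out. The control library and the scaling decide how many genes pass 2-fold. For Myod1 expression the median of the 46 genes was -0.73 with division by the column sum, -0.53 with scaling to the 75th percentile and -0.14 with the other control. Its count of higher genes was 2 with the column sum and 1 at a 4-fold limit. Its count of lower genes was 16 with the column sum, 4 with the other control, 4 against both controls and 0 at 4-fold. For Pparg expression the median turned to 0.03 with the column sum and 0.06 with the other control. Its count of higher genes was 2 with a pseudocount of 0.1, with the 75th percentile, with centring and with GC and length trends removed, 3 with the column sum and with the other control, and 0 at 4-fold. Its count of lower genes was 0 with the other control and against both, and 1 at 4-fold. For Setdb1 knockdown the median was 0.69 with the column sum, 0.68 with the 75th percentile, 0.55 with the other control and 0.69 with the trends removed. Its count of higher genes was 8 with the other control and against both, and 2 at 4-fold. Its count of lower genes was 2 with the other control and 0 at 4-fold. At a 4-fold limit fewer genes pass by construction. Elsewhere the cause was not tested. Filters on low values moved none of these counts and medians past their limits.

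Among 738 values of named genes under the alternatives, 36 turned in sign, 15 of them from a log2 ratio no larger than its own counting error. Of the other 21, those with Myod1 expression were Ctsz (-0.26 with the column sum, -0.05 with the 75th percentile, -0.23 with the trends removed), Cd63 (-0.08 with the column sum), Atp6v0a1 (0.06 with the trends removed) and, against the other control, Neu1 (0.00), Psap (0.00), Atp6v0a1 (0.01) and Cd68 (0.09). With Pparg expression they were Ctsa (0.05 with the column sum), Lamp2 (0.02 with the trends removed) and, against the other control, Ctsa (0.58), Gaa (0.05), Naglu (0.16), Neu1 (0.33), Cd63 (0.15) and Mcoln1 (0.28). The median of the membrane proteins turned to 0.13 against the other control. With Setdb1 knockdown they were Npc1 (-0.06) and Atp6v1b2 (-0.12) against the other control, and Atp6v0c (-0.12) and Atp6v1a (0.01) with the trends removed. Of these 21, Cd68 alone was past 2-fold in the comparison as reported.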

Other observations

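Genes that carry proteins to the lysosome were compared as a list of 24. With Setdb1 knockdown 3 were at least 2-fold higher and 6 lower (12.5% and 25.0%, against 9.34% and 10.3% of all genes), with a median of 0.20. Against both controls 1 was higher and 3 lower (5.80% and 7.56% of all genes), and the median against the other control was 0.12. Nagpa, the enzyme that uncovers the mannose 6-phosphate tag of hydrolases, was the highest (1.94), with an FPKM of 83.4 on 3658 reads, against 832 reads in its control, and FPKM of 13.5 to 20.4 elsewhere. Ap3d1, a subunit of the adaptor that sorts proteins to lysosomes and melanosomes, was the lowest (-1.86), with 10.6 against 41.2 and 27.2 to 53.7 elsewhere. Both stood apart from the other 4 libraries. None of the 24 passed 2-fold with Myod1 expression (14.0% and 7.55% of all genes) or Pparg expression (4.22% and 2.30%), where the medians were -0.46 and -0.14.

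Of 17 autophagy genes, 4 were at least 2-fold higher (23.5%, against 9.34% of all genes) and 0 lower (10.3% of all genes) with Setdb1 knockdown, with a median of 0.80. Gabarapl1, an autophagosome protein of the LC3 family, was the highest (1.83), with an FPKM of 197 against 54.8 and 54.7 to 74.3 elsewhere. With Myod1 expression 3 were higher (17.6%, against 14.0%) and 0 lower (7.55%), led by Atg9b (2.25, on 287 reads against 12), with a median of 0.42. With Pparg expression Map1lc3a was the one gene past 2-fold (1.28), or 5.88% against 4.22%. It was higher by 1.90 with Myod1 expression and by 1.67 with Setdb1 knockdown, where its FPKM was 91.6 and 66.0, against 23.8 and 20.1 in the 2 controls.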
